A study of Canis lupus familiaris with 6 samples.

Results

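The genes described here were 63 members of the tumor necrosis factor (TNF) superfamily, the Toll-like receptor (TLR) family and the NF-kB pathway, chosen by gene symbol from those named on a canine oligonucleotide microarray. They comprised TNF ligands and receptors, the adaptors and kinases that act below these receptors, TNF-induced proteins, TLRs with their adaptors, the IKK subunits, the NF-kB subunits and the NF-kB inhibitors. The members were read by 87 of the 43603 probes that were not controls, among 13684 gene symbols in all. No probe was found by symbol for TRAF6, IRAK1 or NFKBIE. RNA came from the tumor cells of 3 canine mammary cancer lines: P114, from an anaplastic cancer, CMT-U27, from a simple carcinoma, and CMT-U309, from a spindle cell tumor. Each line was grown as a monoculture or as a co-culture with myeloid-derived suppressor cells (MDSCs), immature myeloid cells sorted from the blood of healthy dogs, which were kept above the tumor cells in culture inserts for at least 72 h by the labels, while the methods of the study give a shorter time. No line carried an engineered allele or received another agent. Both RNAs of a line were hybridised together on 2 arrays with the dyes exchanged, so that replicate 1 had the co-culture RNA in Cy5 and replicate 2 had it in Cy3. The 6 arrays thus held 6 RNA extracts in 12 channels, and the comparison of co-culture with monoculture rested on 3 lines, with no replicate culture within a line.

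TNF ligands are trimeric proteins, made mostly by immune cells, that bind receptors on their target cells. The receptors recruit TRAF adaptors and RIP kinases, while TLRs, which bind microbial products and products of damaged tissue, signal mainly through MYD88 and the IRAK kinases. Both routes activate the IKK complex, which marks the inhibitory IkB proteins for degradation and so frees NF-kB dimers to enter the nucleus. The genes for several inhibitors, NFKBIA and TNFAIP3 among them, are themselves NF-kB targets. In mammary epithelium the pathway is known for the RANK ligand (TNFSF11) and its receptor TNFRSF11A, which drive expansion of the gland.

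Probes are shown for a few members whose signal was near background in at least 1 line, for TNF, whose probes disagreed, and for TLR2, as examples of what was read. They are given 5′ to 3′ in lower case, with no base singled out, and with the array design's positions on the canFam2 build. No exon annotation of this build was used here. For TLR4 and TLR2 the letters are not those of the brightest probe, which gave the signals below. The TLR4 probe is the dimmer of 2, on chr11:74395285-74395344, plus strand, and the TLR2 probe is 1 of 3, on chr15:54486506-54486565, plus strand. TNFRSF11B was read on chr13:21189291-21189350, minus strand, LTB on chr12:4082638-4082697, minus strand, TNFSF18 on chr7:28957968-28958027, plus strand, and TNFAIP6 on chr19:55644256-55644315, plus strand. Of the TNF probes, the brighter lies on chr12:4079134-4079193, while the 60 bases of the dimmer span 537 bases at chr12:4078491-4079027, both on the plus strand, so that its match is interrupted in the genome.
TLR4: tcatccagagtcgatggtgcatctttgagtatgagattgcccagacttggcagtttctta
TLR2: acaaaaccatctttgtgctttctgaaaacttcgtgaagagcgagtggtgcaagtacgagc
TNFRSF11B: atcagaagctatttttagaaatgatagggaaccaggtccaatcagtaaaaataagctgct
LTB: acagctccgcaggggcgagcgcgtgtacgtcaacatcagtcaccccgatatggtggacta
TNFSF18: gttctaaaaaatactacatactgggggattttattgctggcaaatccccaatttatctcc
TNFAIP6: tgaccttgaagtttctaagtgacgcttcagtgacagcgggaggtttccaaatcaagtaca
TNF, brighter probe: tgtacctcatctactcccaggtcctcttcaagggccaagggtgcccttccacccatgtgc
TNF, dimmer probe: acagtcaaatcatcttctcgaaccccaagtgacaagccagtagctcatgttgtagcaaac

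The arrays differed in ways that touch every value below. The 2 arrays of P114 did not repeat each other: their co-culture log2 ratios correlated at -0.39 across all tested probes, against 0.26 for CMT-U27 and -0.09 for CMT-U309, and results are therefore also given without P114. Each line was on its own slide with its own scan, so line and slide cannot be told apart. The share of spots called well above background ran from 53.0% to 76.9% in co-culture channels and from 55.2% to 81.0% in monoculture channels, and it was lower in co-culture on 5 of the 6 arrays. No spot was saturated. A gene is represented by its brightest probe. At that probe 35 members were well above background in all 12 channels, 24 in some and 2, the ligands TNFSF11 and TNFSF4, in none. TNFRSF11A and TNFSF8 were under the intensity filter, so 61 members were tested among 13187 genes.

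The level of the members differed widely between the 3 lines. In the limma fit over the 6 extracts, a gene was called between a pair of lines at an adjusted p under 0.05 and a difference of over 2-fold. Of the 61 members, 25 were called between at least 1 pair, next to 42.2% of all genes tested, so the share of members was close to that of all genes. CMT-U27 had the highest level of 16 of these 25 members, CMT-U309 of 5 and P114 of 4. The share of CMT-U27 was 64% here and 48.5% among all 5561 genes called. Between P114 and CMT-U27, 16 members were called, against 26.6% of all genes. Of these 16, 11 were higher in CMT-U27, next to 2027 of the 3513 genes called. Between P114 and CMT-U309, 12 were called, against 15.3% of all genes. Of these 12, 7 were higher in CMT-U309, next to 1068 of the 2019 genes called. Between CMT-U27 and CMT-U309, 20 were called, against 31.8% of all genes. Of these 20, 13 were higher in CMT-U27, next to 2347 of the 4198 genes called. The standard errors of the called log2 differences ran from 0.14 to 0.43. The p-values rest on how far the difference between co-culture and monoculture varied among the lines, with spread borrowed across probes. The 2 extracts of a line were different cultures that shared arrays, not replicates. The p-values thus leave out the spread between replicate cultures and differences between arrays. With normexp background correction, loess and Aquantile scaling in place of the scanner's processed signals, the number called between at least 1 pair was 12. In bulk RNA, fewer cells with a transcript and less of it per cell cannot be told apart.

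**Figure D1:**
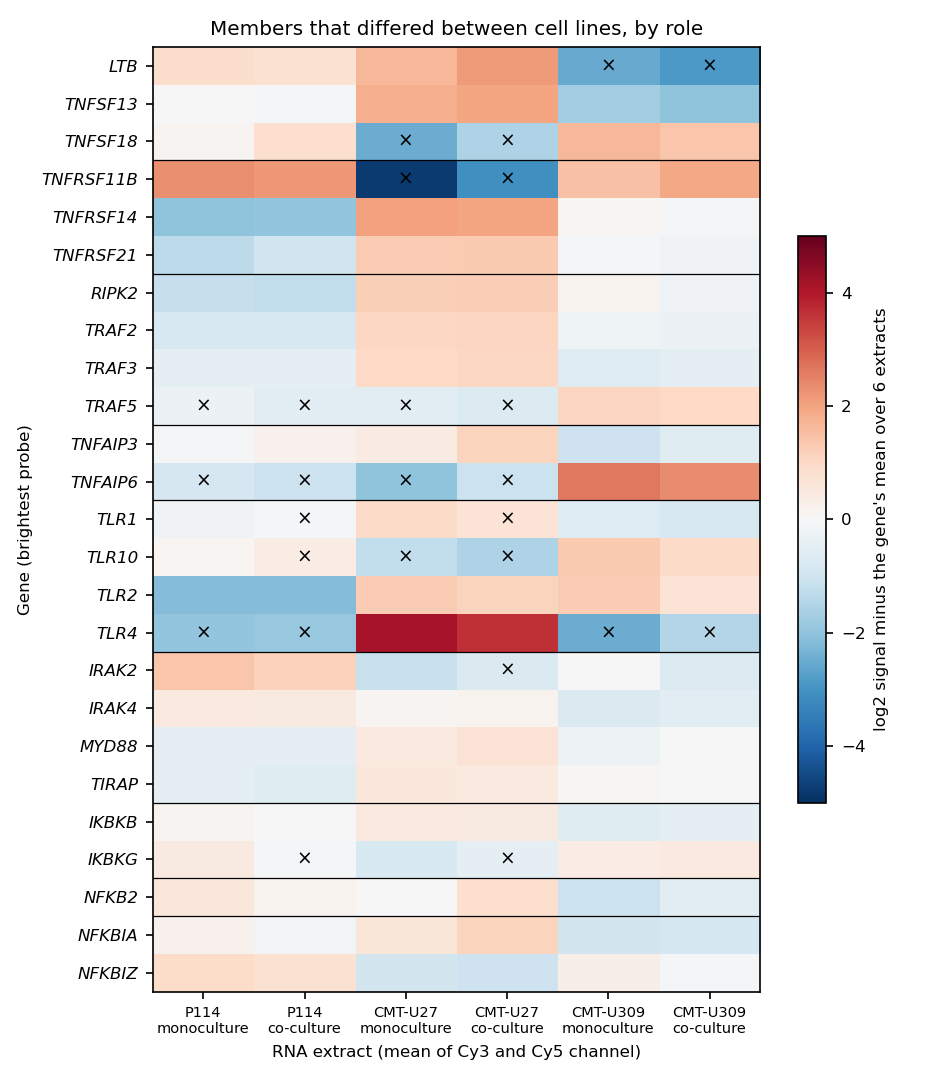
Heat map of the 25 members called between at least 1 pair of lines, grouped by role; columns are the 6 RNA extracts (mean of the Cy3 and Cy5 channels), color is the log2 signal minus the gene's own mean over the extracts, and a cross marks an extract not well above background in either channel. The strongest contrasts are TLR4, high in CMT-U27 alone, and TNFRSF11B, at background in CMT-U27 alone.

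Among the 10 ligands tested, 3 were called between lines. TNFSF13 encodes APRIL, a survival factor for B and plasma cells. The log2 signal of TNFSF13 was 8.81 in monoculture and 8.73 in co-culture of P114, 10.60 and 10.76 in CMT-U27, and 7.04 and 6.77 in CMT-U309. The lines did not overlap, and all 3 pairs were called, with CMT-U27 13.7-fold above CMT-U309 (adjusted p = 5.59e-08, limma) and 3.76-fold above P114 (adjusted p = 8.50e-06, limma). LTB encodes lymphotoxin beta, which anchors lymphotoxin to the membrane. It read 5.41 and 5.28 in P114, 6.18 and 6.65 in CMT-U27, and 1.99 and 1.64 in CMT-U309, where none of the 4 channels was well above background. LTB was therefore at least 8.75-fold higher in CMT-U27 (adjusted p = 1.61e-06, limma) and at least 4.15-fold higher in P114 (adjusted p = 2.52e-05, limma) than in CMT-U309. Such bounds set the brighter line's mean against the lowest signal that counted as well above background on the dimmer line's arrays. They were taken on the scanner's processed signals after Aquantile scaling and are no minimum over other processing. The p-values beside them came from the median-scaled fit and test a difference from 0, not the bound. With normexp, loess and Aquantile scaling the LTB log2 differences were 0.83 for CMT-U27 and 0.52 for P114 over CMT-U309, and both calls were lost. The 2.10-fold gap of LTB between CMT-U27 and P114 was lost without P114 replicate 2, where the log2 difference of P114 over CMT-U27 was -0.55, and without CMT-U27 replicate 1 (-1.01) or CMT-U309 replicate 1 (-1.07). It was also lost in the limma fit of array means, at the same -1.07, with the replicate block (adjusted p = 0.069) and without it (adjusted p = 0.096).

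TNFSF18 encodes GITRL, a co-stimulator of T cells. The log2 signal of TNFSF18 was 5.57 in monoculture and 6.30 in co-culture of P114, 2.97 and 3.89 in CMT-U27, and 7.10 and 6.82 in CMT-U309. No channel of CMT-U27 was well above background, so the gene was at least 8.33-fold higher in CMT-U309 (adjusted p = 1.03e-05, limma) and at least 3.99-fold higher in P114 (adjusted p = 0.000135, limma). Both calls were lost with normexp, loess and Aquantile scaling. The log2 differences there were -0.92 for CMT-U27 over CMT-U309 and 0.51 for P114 over CMT-U27. CMT-U309 over P114 came to 2.04-fold, and that call was lost without P114 replicate 1 (log2 difference of P114 over CMT-U309 -0.66), without either CMT-U309 array (-1.06 and -0.99) and without CMT-U27 replicate 1 (-1.03). TNFSF10 encodes TRAIL, a death ligand. It read 11.57 and 11.60 in P114, 10.52 and 10.68 in CMT-U27, and 11.00 and 11.19 in CMT-U309, and no pair was called. P114 over CMT-U27 missed the 2-fold threshold with a log2 difference of 0.98, and it was 1.08 without CMT-U27 replicate 2 and 1.16 without P114 replicate 1. It was also 1.12 with 75th percentile scaling, 1.15 with quantile normalization and 1.11 with normexp, loess and Aquantile scaling. The pair was called in each of these settings. LTA, the soluble lymphotoxin, lay between 7.69 and 8.14 in all 6 extracts, with no pair called.

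TNF, the founding ligand of the family, was read differently by its probes. At the brighter probe the log2 signal was 5.58 in monoculture and 5.79 in co-culture of P114, 6.39 and 6.38 in CMT-U27, and 6.05 and 4.79 in CMT-U309, with 9 of 12 channels well above background. CMT-U27 was the highest, the extracts of CMT-U309 lay on either side of those of P114, and no pair was called. Without a single array this changed: the log2 difference of CMT-U27 over CMT-U309 was 1.58 without CMT-U309 replicate 1 and 1.11 without CMT-U27 replicate 2, and that of P114 over CMT-U27 was -1.07 without P114 replicate 1, each past the thresholds. At the dimmer probe all 4 channels of CMT-U27 and none of the other lines were well above background. CMT-U27 read 4.47 and 5.30 there, which put it at least 3.23-fold above CMT-U309 and at least 1.53-fold above P114.

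Among the receptors, 3 members were called between lines. TNFRSF11B encodes osteoprotegerin, a secreted decoy receptor for the RANK ligand. Its log2 signal was 8.05 in monoculture and 7.86 in co-culture of P114, 0.93 and 2.63 in CMT-U27, and 7.16 and 7.62 in CMT-U309. All 4 channels of CMT-U27 were at background, and all channels of the other lines were well above it. The level was at least 16.7-fold higher in P114 (adjusted p = 8.77e-07, limma) and at least 11.7-fold higher in CMT-U309 (adjusted p = 1.52e-06, limma). Both pairs were called in all alternative settings. The smallest log2 differences there were 1.72 for P114 over CMT-U27 and -1.39 for CMT-U27 over CMT-U309. TNFRSF14 encodes HVEM, the receptor of LIGHT. It read 8.44 and 8.47 in P114, 12.51 and 12.43 in CMT-U27, and 10.54 and 10.34 in CMT-U309. Each line stood apart, with CMT-U27 16.2-fold above P114 (adjusted p = 1.28e-08, limma) and 4.08-fold above CMT-U309 (adjusted p = 1.42e-06, limma), and CMT-U309 3.96-fold above P114. TNFRSF21, or death receptor 6, had the same order, with 5.92 and 6.26, then 8.51 and 8.56, then 7.12 and 7.06. CMT-U27 was 5.44-fold above P114 and 2.72-fold above CMT-U309 (adjusted p = 4.17e-06 and 0.000141, limma).

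**Figure D2:**
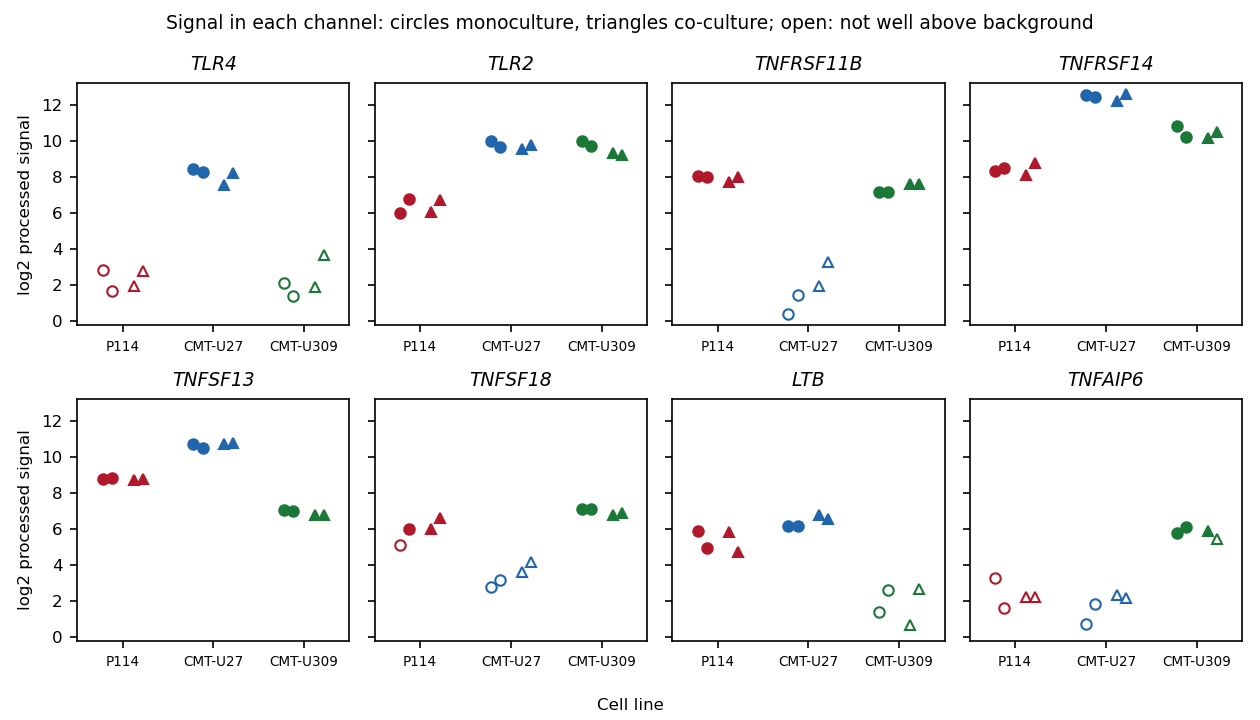
Log2 processed signal (vertical axis) of 8 members in each of the 12 channels, by line (horizontal axis); circles are monoculture, triangles are co-culture, and open symbols were not well above background. TNFRSF11B is open in all 4 channels of CMT-U27, and TLR4 is open in all channels but those of CMT-U27.

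The receptors of TNF itself and of lymphotoxin were not among the called. TNFRSF1A, the widely expressed TNF receptor with a death domain, lay between 8.30 and 9.03 in the 6 extracts. LTBR, the lymphotoxin beta receptor, lay between 9.66 and 10.28. The other TNF receptor, TNFRSF1B, was dim, with 7 of its 12 channels well above background. Its second probe had 5 such channels of 12, none of them in P114. There P114 passed the thresholds under CMT-U27 (log2 difference -1.39, adjusted p = 0.014, limma) and under CMT-U309 (-1.77, adjusted p = 0.0057, limma). The bounds of that probe allowed no fold, and the brightest probe gave 0.06 and 0.07. TNFRSF8, TNFRSF19 and TNFRSF25 were well above background throughout and were not called for any pair.

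Below the receptors, RIPK2, TRAF2 and TRAF3 were highest in CMT-U27 at their brightest probe, but the second probes of TRAF2 and TRAF3 gave less. RIPK2 is a kinase that carries signals from NOD receptors. In log2 units it read 10.59 in monoculture and 10.52 in co-culture of P114, 12.95 and 12.97 in CMT-U27, and 11.93 and 11.60 in CMT-U309, with no overlap between lines. CMT-U27 was 5.29-fold above P114 (adjusted p = 5.93e-07, limma) and 2.29-fold above CMT-U309, and CMT-U309 was 2.31-fold above P114. The call of CMT-U27 over CMT-U309 depended on the scaling. Its log2 difference was 0.98 with 75th percentile scaling, 0.89 with quantile normalization and 0.84 with normexp, loess and Aquantile scaling, each under the 2-fold threshold. TRAF2, the main adaptor of TNF receptors, read 9.20 and 9.21 in P114, 11.03 and 11.08 in CMT-U27, and 9.80 and 9.73 in CMT-U309. Its excess in CMT-U27 was 3.62-fold over P114 (adjusted p = 2.99e-06, limma) and 2.45-fold over CMT-U309 (adjusted p = 3.28e-05, limma). The latter call was lost with normexp, loess and Aquantile scaling, at a log2 difference of 0.92. The second TRAF2 probe, well above background in all 12 channels too, was called for no pair, with log2 differences of -0.40 for P114 over CMT-U27, 0.84 for CMT-U27 over CMT-U309, and 0.44 for P114 over CMT-U309, which is opposite in sign to the brightest probe's -0.56. TRAF3, a brake on the non-canonical NF-kB route, read 8.46 and 8.49, then 9.92 and 9.97, then 8.29 and 8.43. CMT-U27 exceeded P114 by 2.77-fold (adjusted p = 2.68e-05, limma) and CMT-U309 by 1.58 on the log2 scale (adjusted p = 1.30e-05, limma), while P114 and CMT-U309 differed by less than 2-fold and were not called. The second TRAF3 probe, also well above background throughout, gave -0.50 for P114 over CMT-U27 (adjusted p = 0.083, limma) and 0.19 for CMT-U27 over CMT-U309 (adjusted p = 0.49, limma), and both calls were lost with the median of the probes, at -0.98 and 0.89. With normexp, loess and Aquantile scaling the TRAF3 call of CMT-U27 over CMT-U309 was lost, at 0.98. RIPK1, a kinase of the TNF receptor complex, was lowest in P114, at 7.44 and 6.99, and no pair was called. TRAF5 was called for CMT-U309 over both other lines, but it was well above background in only 3 channels of CMT-U309, and its bound allowed no fold. TRAF1 was well above background in 2 of 12 channels.

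Of the TNF-induced proteins, TNFAIP3 and TNFAIP6 differed between lines. TNFAIP3 encodes A20, a ubiquitin-editing brake on NF-kB. It read 6.94 and 7.21 in P114, 7.42 and 8.10 in CMT-U27, and 5.95 and 6.39 in CMT-U309. CMT-U27 was 3.01-fold above CMT-U309 (adjusted p = 8.85e-05, limma), and the call was lost with the median of its probes, at a log2 difference of 0.97. It was also lost with normexp, loess and Aquantile scaling, at 0.68. P114 lay between these lines, called only without P114 replicate 2, where its log2 difference over CMT-U309 was 1.11. TNFAIP6 encodes TSG-6, a secreted protein that binds hyaluronan. Its log2 signal was 2.44 and 2.22 in P114, 1.26 and 2.22 in CMT-U27, and 5.93 and 5.67 in CMT-U309. Only CMT-U309 was above background, in 3 of its 4 channels, at least 2.73-fold over P114 (adjusted p = 0.000244, limma) and at least 3.70-fold over CMT-U27 (adjusted p = 3.61e-05, limma). Both calls were lost with normexp, loess and Aquantile scaling. The log2 differences there were -0.66 for P114 and -0.55 for CMT-U27 over CMT-U309.

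TLR4 and TLR2 gave the widest contrasts among the TLRs. TLR4, the receptor of bacterial lipopolysaccharide, read 8.37 in monoculture and 7.91 in co-culture of CMT-U27. In P114 it read 2.28 and 2.35, and in CMT-U309 1.74 and 2.79, with no channel of either line well above background. CMT-U27 was at least 13.1-fold above P114 (adjusted p = 1.54e-06, limma) and at least 27.6-fold above CMT-U309 (adjusted p = 1.27e-06, limma). Both pairs were called in all alternative settings. The smallest log2 differences there were -1.80 for P114 over CMT-U27 and 1.74 for CMT-U27 over CMT-U309. The second TLR4 probe, whose sequence is given above, was likewise above background in CMT-U27 alone, at least 2.85-fold over P114 and at least 6.02-fold over CMT-U309. TLR2, which binds bacterial lipoproteins as a partner of TLR1, TLR6 or TLR10, was low in P114 alone. Its log2 signal was 6.42 and 6.41 in P114, 9.85 and 9.68 in CMT-U27, and 9.85 and 9.28 in CMT-U309. CMT-U27 was 10.2-fold (adjusted p = 2.71e-07, limma) and CMT-U309 8.92-fold (adjusted p = 8.58e-07, limma) above P114, and the 3 TLR2 probes had the same sign. The latter lines overlapped, with a log2 difference of 0.20. TLR3, a receptor of double-stranded RNA, lay between 5.63 and 6.75 and was called for no pair. Leaving out 1 array brought it past the thresholds for P114 over CMT-U27, with a log2 difference of -1.03 without CMT-U27 replicate 1 and -1.16 without P114 replicate 1. TLR1 and TLR10 were called but dim, with 5 and 4 of 12 channels well above background.

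Of the TLR adaptors and kinases, 4 of 5 were called for at least 1 pair, each of them lost under some setting. MYD88, the adaptor shared by nearly all TLRs, read 8.92 and 8.94 in P114, 9.90 and 10.11 in CMT-U27, and 9.15 and 9.39 in CMT-U309. The 2.11-fold excess of CMT-U27 over P114 (adjusted p = 0.00021, limma) fell under the 2-fold threshold without P114 replicate 2, with a log2 difference of -0.88 for P114 over CMT-U27. It did so too with 75th percentile scaling (-0.94), quantile normalization (-0.91) and normexp, loess and Aquantile scaling (-0.70). TIRAP, which bridges MYD88 to TLR2 and TLR4, read 6.89 and 6.80, then 7.91 and 7.89, then 7.46 and 7.41. Its 2.08-fold gap between CMT-U27 and P114 (adjusted p = 0.000767, limma) was lost without CMT-U27 replicate 2, with a log2 difference of -0.94. The same 3 scalings lost it too, at -0.92, -0.97 and -0.52. IRAK2 ran the other way, with 5.72 and 5.45 in P114, 3.19 and 3.58 in CMT-U27, and 4.32 and 3.62 in CMT-U309. P114 was called higher than CMT-U27 (adjusted p = 0.000604, limma) and CMT-U309 (adjusted p = 0.00616, limma), but 1 and 3 of their 4 channels were well above background, so no fold is given. With normexp, loess and Aquantile scaling these log2 differences were 0.35 and 0.32. Without CMT-U27 replicate 2 the pair of CMT-U27 and CMT-U309 was called as well, at -1.06. IRAK4, the kinase that starts the cascade, was 2.17-fold higher in P114 than in CMT-U309 (adjusted p = 0.000761, limma) but only 0.93 on the log2 scale without CMT-U309 replicate 2. This log2 difference was 0.60 with normexp, loess and Aquantile scaling.

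Of the NF-kB subunits 1 of 5 was called between lines, and of the inhibitors 2 of 5. All 5 subunits were well above background in every channel, and NFKB2 was the one called. NFKB2 encodes p100, the precursor of p52. It read 9.21 in monoculture and 8.80 in co-culture of P114, 8.66 and 9.48 in CMT-U27, and 7.57 and 8.09 in CMT-U309. CMT-U309 was the lowest, 2.37-fold under CMT-U27 (adjusted p = 0.00257, limma) and 2.26-fold under P114 (adjusted p = 0.00631, limma). The second NFKB2 probe gave 0.99 and 0.73 for these pairs, under the 2-fold threshold, and with the median of the probes the log2 difference of P114 over CMT-U309 was 0.95. With normexp, loess and Aquantile scaling both NFKB2 calls were lost, at 0.71 for CMT-U27 and 0.76 for P114 over CMT-U309. RELA, the transactivating p65 subunit, lay between 8.73 and 9.98, REL between 7.51 and 7.93, RELB between 8.38 and 9.20 and NFKB1, the p50 precursor, between 10.36 and 11.85. NFKB1 was called between CMT-U27 and CMT-U309 only without CMT-U309 replicate 2, at a log2 difference of 1.02.

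NFKBIA encodes IkB-alpha, the inhibitor that NF-kB induces within its own feedback loop. Its log2 signal was 12.57 and 12.22 in P114, 12.96 and 13.50 in CMT-U27, and 11.46 and 11.48 in CMT-U309. CMT-U27 was 3.38-fold above CMT-U309 (adjusted p = 4.15e-05, limma). NFKBIZ, an atypical nuclear IkB, was lowest in CMT-U27, with 8.26 and 8.16, against 10.09 and 9.94 in P114 and 9.48 and 9.13 in CMT-U309. P114 was 3.49-fold (adjusted p = 6.78e-06, limma) and CMT-U309 2.14-fold (adjusted p = 0.000183, limma) above it, and the latter call was lost without CMT-U27 replicate 1, at -0.96. IKBKB, a catalytic IKK subunit, was 2.01-fold higher in CMT-U27 than in CMT-U309 (adjusted p = 0.00124, limma), with 0.95 without CMT-U27 replicate 2 and 0.88 without CMT-U309 replicate 1 on the log2 scale. This difference was 0.79 with 75th percentile scaling, 0.90 with quantile normalization and 0.50 with normexp, loess and Aquantile scaling. CHUK, the other catalytic subunit, was called at its brightest probe for CMT-U27 over CMT-U309 only without CMT-U27 replicate 1 or without CMT-U309 replicate 2, at 1.07 and 1.08. Another CHUK probe, well above background in 11 of 12 channels, passed the thresholds for this pair at 1.34 (adjusted p = 0.0011, limma). It also passed for P114 over CMT-U27, at -1.39 (adjusted p = 0.0011, limma). The remaining CHUK probes gave 0.47 and 0.56 for CMT-U27 over CMT-U309 and passed for no pair. IKBKG, the regulatory subunit NEMO, was dim, with 4 of 12 channels well above background. Its call between CMT-U27 and CMT-U309, at a log2 difference of -1.04 between lines mostly at background, was lost without replicate 1 of either line (-0.69 and -0.73) and, at that same difference, without either P114 array, and P114 over CMT-U27 was called without CMT-U27 replicate 2 (1.13).

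The second comparison asked whether co-culture with MDSCs changed these genes in the tumor cells. No member was called. By the thresholds of the study's methods, an unadjusted p under 0.05 with a change of over 2-fold, 0 of 61 members were higher in co-culture, against 0.66% of all genes, and 0 were lower, against 0.174%. At an unadjusted p under 0.05 alone there were 6 members, close to the 9.45% of all genes, and none had an adjusted p under 0.05, the smallest being 0.499 (limma over the 3 lines). Over all 40860 probes 4058 had an unadjusted p under 0.05 and none an adjusted one. The mean log2 ratios of the members ran from -0.71 to 0.69, with a median of 0.03 against 0.00033 over all genes. There were 34 members above 0 and 27 below. The direction was the same on all 6 arrays for 2 members, RELA and TNFAIP8, against 4.54% of all genes. The test compared 3 lines, and nothing in the labels says that the arrays held separate cultures.

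**Figure D3:**
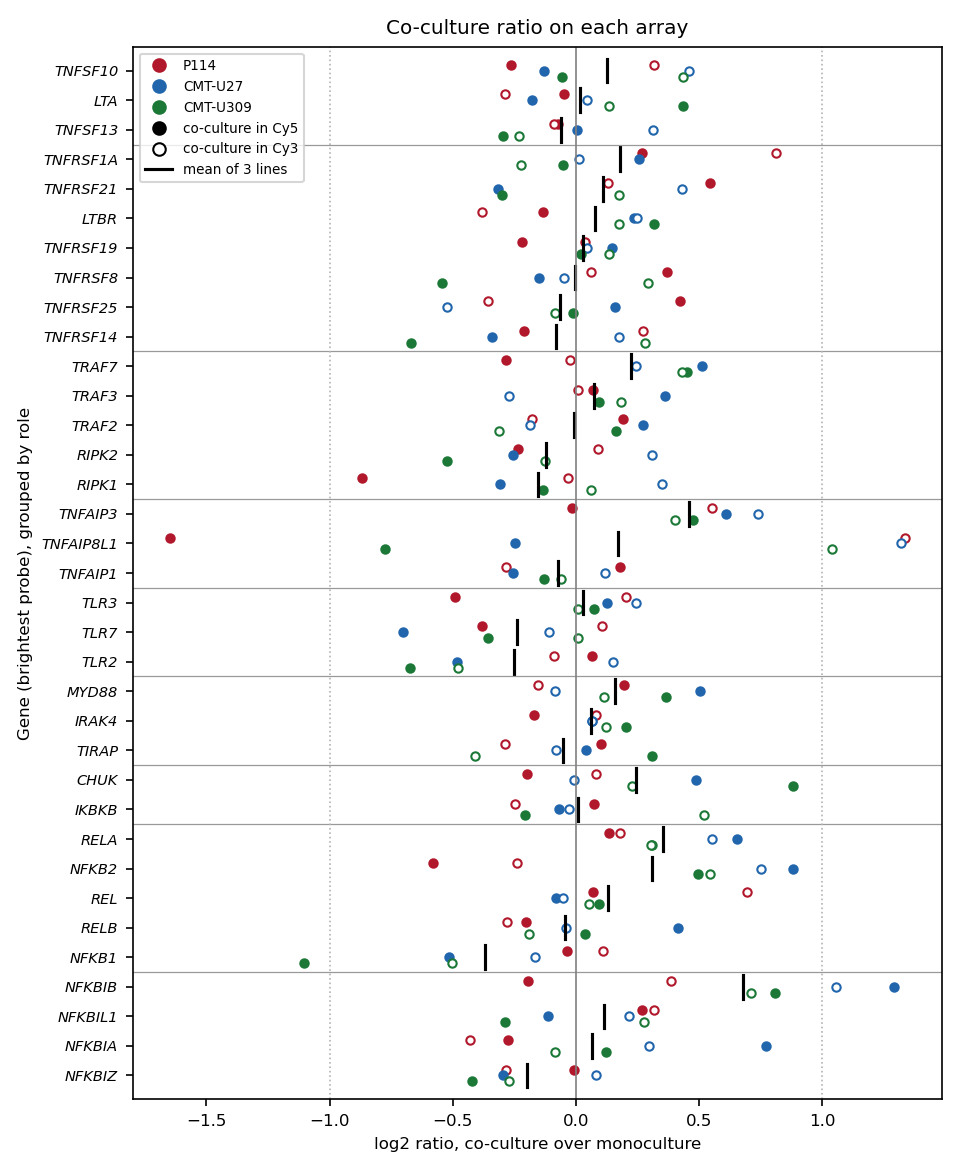
Log2 ratio of co-culture over monoculture (horizontal axis) on each of the 6 arrays for the 35 members well above background in all 12 channels, grouped by role; color gives the line, filled circles have the co-culture RNA in Cy5, open circles have it in Cy3, and the black bar is the mean of the 3 lines. NFKBIB lies at or above 0.71 on the 4 arrays of CMT-U27 and CMT-U309 and on both sides of 0 in P114.

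NFKBIB, which encodes IkB-beta, had the lowest p among the members. Its log2 ratios were -0.20 and 0.39 on the P114 arrays, 1.29 and 1.06 on those of CMT-U27, and 0.81 and 0.71 on those of CMT-U309. It was higher in co-culture on 5 of 6 arrays, with P114 on both sides of 0. The mean log2 ratio over the lines was 0.68 (SE 0.19, unadjusted p = 0.0048, adjusted p = 0.499, limma). The mean was 0.97 without P114, 0.43 without CMT-U27 and 0.64 without CMT-U309. RELA had 0.13 and 0.18 in P114, 0.65 and 0.55 in CMT-U27, and 0.31 and 0.31 in CMT-U309. All 6 arrays were above 0, and the mean was 0.36 (SE 0.13, unadjusted p = 0.021). The other RELA probe gave line means of -0.49, 0.59 and 0.25, with P114 opposite in sign.

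NFKB1 had log2 ratios of -0.03 and 0.11 in P114, -0.51 and -0.17 in CMT-U27, and -1.10 and -0.50 in CMT-U309. It was lower in both CMT lines and near 0 in P114, with a mean of -0.37 (SE 0.15, unadjusted p = 0.037), which was -0.15 without CMT-U309. Its other probe gave line means of -0.29, -0.02 and 0.06. NFKB2 had -0.58 and -0.24 in P114, 0.88 and 0.75 in CMT-U27, and 0.50 and 0.55 in CMT-U309. P114 thus lay below 0 on both arrays and the CMT lines above 0 on all 4, and the mean of 0.31 had an unadjusted p of 0.17. At the other NFKB2 probe the mean was -0.03, the widest disagreement between probes of a member that were well above background in every channel. REL and RELB had mean log2 ratios of 0.13 and -0.04.

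Of the feedback genes, TNFAIP3 was -0.01 and 0.55 in P114, 0.61 and 0.74 in CMT-U27, and 0.47 and 0.40 in CMT-U309. It was higher on 5 of 6 arrays, with a mean log2 ratio of 0.46 (SE 0.16, unadjusted p = 0.016). The other TNFAIP3 probe, well above background in 4 of 12 channels, had a mean of 0.06. NFKBIA was -0.28 and -0.43 in P114, 0.77 and 0.30 in CMT-U27, and 0.12 and -0.08 in CMT-U309. The lines diverged, and the mean of 0.07 did not differ from 0 by the test (unadjusted p = 0.68). NFKBIZ had a mean of -0.20 (unadjusted p = 0.13), and the IKK subunits CHUK, IKBKB and IKBKG had 0.25, 0.01 and -0.04.

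Among the receptors, TNFRSF1B had the lowest mean of all members. Its log2 ratios were -0.19 and -2.19 in P114, 0.07 and -0.77 in CMT-U27, and 0.41 and -1.58 in CMT-U309. The low values were the 3 arrays with the co-culture RNA in Cy3, while the other 3 lay between -0.19 and 0.41. The mean was -0.71 (SE 0.28, unadjusted p = 0.031), and it came to -1.04 without P114 replicate 1 and -1.04 without CMT-U309 replicate 1, past the thresholds of the methods in both cases. The second TNFRSF1B probe, dimmer still, had line means of -0.02, -0.62 and -0.46 and a mean of -0.37 (unadjusted p = 0.26, limma). TNFRSF1A was 0.27 and 0.81 in P114, 0.26 and 0.01 in CMT-U27, and -0.05 and -0.22 in CMT-U309, with a mean of 0.18 (unadjusted p = 0.26). TNFRSF11B was -0.35 and -0.03 in P114, 1.56 and 1.84 in CMT-U27, and 0.46 and 0.46 in CMT-U309. Its highest ratios came from CMT-U27, where neither extract was above background, and the mean was 0.66 (SE 0.31, unadjusted p = 0.063).

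The ligands showed no common direction, with 6 of the 10 tested above 0 and a median log2 ratio of 0.07. TNF was 1.38 and -0.95 in P114, 0.21 and -0.23 in CMT-U27, and 0.02 and -2.53 in CMT-U309. In each line the ratio was lower with the co-culture RNA in Cy3, and the mean was -0.35 (SE 0.28, unadjusted p = 0.23) at the brighter probe and 0.33 at the dimmer. LTA, LTB and TNFSF10 had means of 0.02, 0.00 and 0.13. TNFSF18 was higher on both arrays of P114 and CMT-U27 and lower on both of CMT-U309, with a mean of 0.46 (unadjusted p = 0.11).

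TNFAIP8, which modulates cell death, was 0.94 and 0.80 in P114, 0.07 and 0.10 in CMT-U27, and 0.20 and 0.72 in CMT-U309. All 6 arrays were above 0, with a mean log2 ratio of 0.47 (SE 0.21, unadjusted p = 0.048). TNFAIP8L1, a paralog, turned with the dye in every line, with -1.65 and 1.34 in P114, -0.25 and 1.32 in CMT-U27, and -0.77 and 1.04 in CMT-U309. Its ratios averaged 2.12 log2 units lower with the co-culture RNA in Cy5 than in Cy3, against a median absolute gap of 0.275 over the members and 0.337 over all genes.

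Of the 8 TLRs tested, 3 had a mean above 0 and 5 below, with a median log2 ratio of -0.12. TLR2 was 0.07 and -0.09 in P114, -0.48 and 0.15 in CMT-U27, and -0.67 and -0.48 in CMT-U309. Only CMT-U309 was lower on both arrays, and the mean was -0.25 (SE 0.14, unadjusted p = 0.12). The other TLR2 probes had means of opposite sign, 0.15 and 0.15. TLR4, measured in CMT-U27 alone, had log2 ratios of -0.90 and -0.03 there. MYD88 had a mean of 0.16 (SE 0.12, unadjusted p = 0.21), IRAK4 of 0.06 and TIRAP of -0.05. TRAF2, TRAF3, RIPK1 and RIPK2 had means of -0.01, 0.07, -0.16 and -0.12.

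Without P114 the test had 2 lines and borrowed its spread across probes. At an adjusted p under 0.05, 8 members passed (limma), against 16.6% of all genes, and 15 had an unadjusted p under 0.05, against 34.1%. Both shares of members were under those of all genes. NFKBIB, NFKB2, TRAF7, RELA, TNFAIP3, IRAK3 and TNFRSF11B were higher in co-culture and NFKB1 was lower. NFKBIB had a mean log2 ratio of 0.97 (adjusted p = 0.00089), NFKB2 of 0.67 (adjusted p = 0.0055), NFKB1 of -0.57 (adjusted p = 0.0076), RELA of 0.46 (adjusted p = 0.022) and TNFAIP3 of 0.56 (adjusted p = 0.035). In CMT-U27 and CMT-U309 the other probe of NFKB2 gave 0.56 and -0.05, that of NFKB1 -0.02 and 0.06, and that of RELA 0.59 and 0.25. TRAF7 had 0.41 and IRAK3, a kinase-dead brake on TLR signalling, had 0.67 (adjusted p = 0.012 and 0.042). The other probes of TNFAIP3 and TRAF7 were each well above background in only 4 of 12 channels. In CMT-U27 and CMT-U309 that of TNFAIP3 gave -0.26 and 0.23, and that of TRAF7 0.96 and -0.19. By the fold thresholds of the methods, 2 members were called higher, TNFRSF11B (1.08) and TLR5 (1.11), against 3.66% of all genes. Both rested on channels at background, all 4 of CMT-U27 for TNFRSF11B and all but 1 of the 12 for TLR5. Over all probes, the line ratios had a correlation of 0.58 between the CMT lines and of -0.08 between P114 and either of them. Whether the difference between P114 and the other lines exceeded its error was not tested for single genes.

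**Figure D4:**
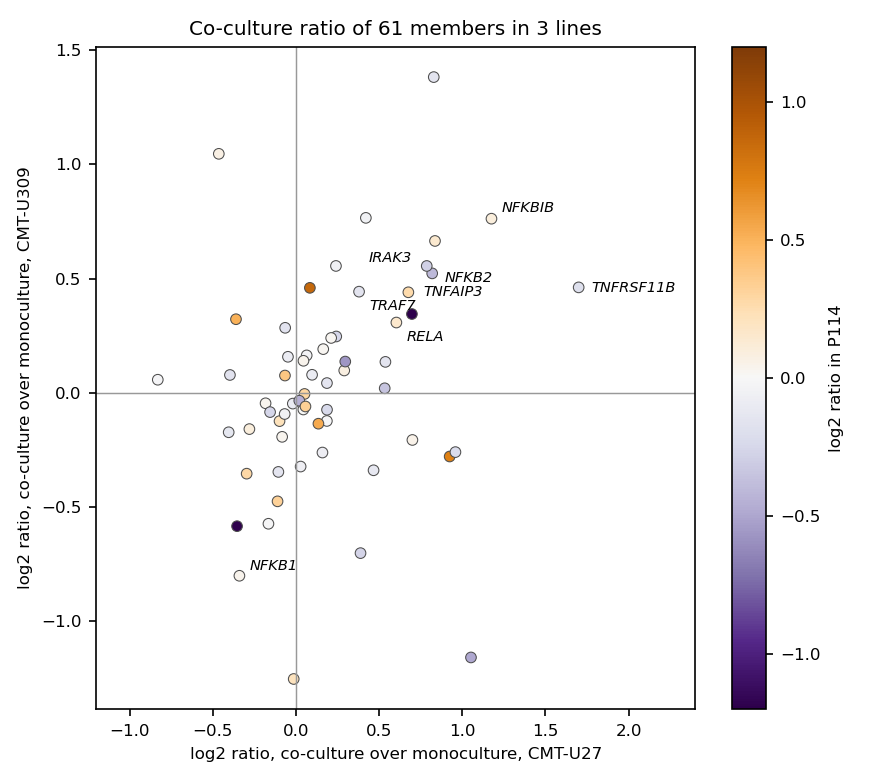
Log2 ratio of co-culture over monoculture in CMT-U27 (horizontal axis) against CMT-U309 (vertical axis) for the 61 members tested, each point the mean of the line's 2 arrays, with color giving the ratio in P114; the 8 members with an adjusted p under 0.05 without P114 are named. At its brightest probe NFKB2 is positive in both CMT lines, at 0.82 and 0.52, and -0.41 in P114, while its other probe gave -0.05 in CMT-U309.

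Other components of the pathway, from a list of 53 genes of which 42 were tested, gave no call in co-culture. An unadjusted p under 0.05 was found for 5, next to 9.45% of all genes. PELI1 and TOLLIP, regulators of IRAK signalling, had mean log2 ratios of 0.35 and 0.35, while MALT1, NKIRAS1 and TAB3 had -0.27, -0.55 and -0.78. Between lines, 17 of the 42 were called for at least 1 pair, next to 42.2% of all genes. Of 30 known NF-kB target genes 27 were tested, and none was called in co-culture. BCL2L1, CCND1 and PTGS2 had an unadjusted p under 0.05, with means of 0.32, 0.44 and 0.35. Between lines 23 of the 27 were called for at least 1 pair, next to 42.2% of all genes, and they went both ways: of the 21 called between P114 and CMT-U27, 11 were higher in P114 and 10 in CMT-U27. The chemokine IL8 read 15.10 and 15.12 in P114, 9.93 and 10.13 in CMT-U27, and 14.77 and 14.10 in CMT-U309, lowest in CMT-U27 by 33.9-fold and 21.2-fold (adjusted p = 2.89e-08 and 7.07e-08, limma). The chemokine CCL20 read 11.20 and 11.14 in CMT-U27 and at most 7.93 in the extracts of the other lines, 14.3-fold over P114 and 11.7-fold over CMT-U309.

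Markers of other cell types were read beside these results. The labelled tumor types are compared here by their epithelial and mesenchymal markers only. Of 8 epithelial markers listed, 4 were tested. Their summed signal was 107542 in monoculture and 121481 in co-culture of CMT-U27, and between 4782 and 7124 in the extracts of the other lines. Such sums are carried by the brightest markers. Of the 4, 3 were called higher in CMT-U27 than in P114. Against CMT-U309, 3 were called higher in CMT-U27 and 1 was called lower. The summed signal of 6 mesenchymal markers was 7890 and 8566 in CMT-U27, and between 314531 and 512579 in the others. The TLR4, TNFRSF14 and TNFRSF11B contrasts between CMT-U27 and the other lines went together with these sums, although TNFRSF14 also differed 3.96-fold between P114 and CMT-U309. Other wide contrasts did not: TLR2 was low in P114 alone, LTB was at background in CMT-U309 alone, and TNFAIP6 was above it there alone. With 3 lines, any gene that sets CMT-U27 apart goes with the sums. The part of these markers in the results was not tested. Of 19 myeloid markers, genes that MDSCs may carry and that also gave signal in the monocultures, 16 were tested and none was called in co-culture, 3 were well above background in all channels, and FCGR3A, ITGAM, LYZ and SPI1 were so in none. Their summed signal went from 1703 to 1694 in P114, from 7964 to 13673 in CMT-U27 and from 2330 to 2471 in CMT-U309. The median log2 ratio of the 16 was 0.57 for CMT-U27, against -0.21 for P114 and 0.06 for CMT-U309. Of the 16, 12 kept their sign on both CMT-U27 arrays, some of them below 0, against 5 for P114 and 4 for CMT-U309. Of all 13187 genes tested, 8527 kept it for CMT-U27, 5336 for P114 and 7050 for CMT-U309. Many of the 16 were near background, and how many markers carried the higher sum in CMT-U27 was not tested. Among the 16, S100A8 and S100A9, which epithelial cells also express, were higher on both CMT-U27 arrays, with log2 ratios of 0.88 and 0.82 and of 0.84 and 0.76. All 4 endothelial markers had a mean ratio above 0 (median log2 ratio 0.37, 2 with an unadjusted p under 0.05), although CDH5 was at background in every channel, and their summed signal went from 8290 to 8124 in P114, from 5373 to 7533 in CMT-U27 and from 6893 to 9417 in CMT-U309. All 6 lymphocyte markers tested had a mean below 0 (median -0.25, 1 with an unadjusted p under 0.05), and their sums lay between 376 and 651. No marker of either list was called. The part of these markers in the co-culture ratios of the members was not tested.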

How the data were processed

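Cy3- and Cy5-labelled cRNA from 3 lines was hybridised to 6 Agilent canine arrays. The authors deposited scanner files from Agilent Feature Extraction, version 10.10.1.1 per the file headers and 10.7.3.1 per the submitters' processing notes, whose processed intensity was background-subtracted and dye-normalized (linear and lowess), with surrogates for low signals. The deposited value table and ratio column held log10 ratios of the 2 channels, turned to co-culture over monoculture in the table.

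Channels were scaled to a common median, outlier spots were dropped, and a probe stayed only if its highest intensity exceeded 10, which left 40860 probes and 13187 genes. Spots of a probe were averaged, and a gene was its brightest probe over 12 channels. Since the dye-swapped arrays held the same RNAs, they were averaged into 1 log2 ratio per line. The mean of the 3 lines was tested with limma 3.58.1 in R 4.3.3 (lmFit, eBayes with a trend, Benjamini-Hochberg over all probes), two-sided. Levels were tested on the 6 extracts with line and culture as terms. Fits were checked on simulated data. Arrays with the same replicate number deviated together from their line means (correlations of 0.36, 0.58 and 0.48), so the number, which marks the dye orientation, pairs arrays. The number of arrays limits the precision.

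The members and lists were chosen with earlier results of these data known. Of the members, 62 of 63 symbols matched a RefSeq gene table. The text names members called, the largest differences by pair of lines, the largest co-culture ratios among bright members, the pair of probes that disagreed most and genes chosen by function. TNFRSF21, TRAF5, TRAF7, TLR1, TLR5, TLR10, IRAK3, TNFAIP8, TNFAIP8L1 and the other members and listed genes outside this rule were named after their values were seen. Alternatives are given in the closing section, and the sign-turned arrays were chosen after seeing the data.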

Additional observations from a re-analysis of the deposited data

Results flagged for a closer look

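In several members the co-culture log2 ratio had 1 sign on both arrays of a line and the opposite sign on both arrays of another. With 2 arrays of the same RNAs in each line, none of these differences was tested. For NFKB2 the ratio of P114 (-0.41) was 1.23 below that of CMT-U27 (difference -1.23) and 0.93 below that of CMT-U309 (difference -0.93). NFKBIA differed by -0.89 between P114 (-0.35) and CMT-U27 (0.53). LTBR was negative in P114 (-0.26) and positive in CMT-U27 and CMT-U309, with differences of -0.50 and -0.50. LTA differed by -0.45 between P114 and CMT-U309. TNFRSF1A was positive in P114 and CMT-U27 and negative in CMT-U309, with differences of 0.68 and 0.27. REL was negative in CMT-U27, with P114 minus CMT-U27 at 0.45 and CMT-U27 minus CMT-U309 at -0.14. TNFSF13 was positive in CMT-U27, with P114 minus CMT-U27 at -0.24 and CMT-U27 minus CMT-U309 at 0.42. All but the 3 differences between CMT-U27 and CMT-U309 involve P114, whose 2 arrays correlated at -0.39 over all probes.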

How the results depend on the processing

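With normexp, loess and Aquantile scaling, 12 members were called between at least 1 pair of lines in place of 25, 6 between CMT-U27 and CMT-U309 in place of 20 and 4 between P114 and CMT-U309 in place of 12, and 20 of the 48 calls of a gene and a pair were shared. With 75th percentile scaling 43 of the 48 calls were shared, and with quantile normalization of the channels 42. IKBKB, MYD88, RIPK2 and TIRAP each lost a call under both. Leaving out 1 array gave 22 to 28 members for at least 1 pair, 13 to 19 for P114 and CMT-U27, 9 to 12 for P114 and CMT-U309, and 18 to 22 for CMT-U27 and CMT-U309. In co-culture, the 6 members with an unadjusted p under 0.05 became 15 without P114, 2 without CMT-U27, 3 without CMT-U309, 2 when each gene was the median of its probes, 3 with only probes well above background, and 1 by the methods' t-test, and between 3 (without P114 replicate 2) and 8 without single arrays. Turning the sign of P114 replicate 1 gave 14 and of replicate 2 gave 1, chosen after seeing the data. Members with an adjusted p under 0.05 numbered 0, but 8 without P114 and 3 with P114 replicate 1 turned. Those called higher numbered 0, but 2 without P114, and those called lower 0, but 1 (TNFRSF1B) without P114 replicate 1 or without CMT-U309 replicate 1. The replicate block changed no call in co-culture, with 7 members at an unadjusted p under 0.05, and gave 48 level calls, 47 of them shared, with LTB lost between P114 and CMT-U27 and TRAF1 gained between CMT-U27 and CMT-U309. No call reversed its direction, but the mean co-culture ratio of 40 of the 61 members had both signs over the settings, TNF (-0.81 to 0.10), NFKBIA (-0.17 to 0.28), TLR2 (-0.37 to 0.05), TNFRSF1A (-0.09 to 0.34) and TNFRSF1B (-1.04 to 0.02) among them. Of the alternative values for single named genes, 801 of the co-culture ratios kept their side of the thresholds and 3 newly passed them, while 1574 of the level differences kept it, 21 newly passed and 58 no longer passed. The causes were not tested. For genes with channels near background, IRAK2 and IKBKG among them, differences are not measured folds.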
